A study of Mus musculus with 9 samples.

Results

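Cxcl12, a secreted chemokine, and its receptors Cxcr4 and Ackr3 were followed in RNA of the mouse striatum at E17.5. The 3 genes were chosen by name, their rows were found by Ensembl identifier among the 44886 genes counted, and all 3 passed the filter on low counts that left 16368 genes for testing. By the labels, tissue came from 9 embryos of a C57BL/6 background, each with a library of its own, in 3 groups of 3. The first group was labelled Control, and the methods of the study name heterozygous embryos as controls. The second was labelled Islet1Cre;Ebf1fl/- and the third Dlx5/6::Cre;Ebf1fl/-. Embryos of both mutant groups have a null Ebf1 allele in every cell and a floxed allele that is lost where Cre was active. Islet1Cre acts in neurons of the direct pathway (dSPN) and in cholinergic interneurons, and the study states a mixed B6D2F1/J origin for this line. Dlx5/6::Cre acts in all striatal projection neurons (SPN) and in interneurons. The comparisons ask whether the chemokine and its receptors are expressed differently after loss of Ebf1, a transcription factor made by developing dSPN.

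Cxcl12 is held on cell surfaces and matrix by heparan sulfate, and it draws cells along its gradient through Cxcr4, a receptor that signals by Gi proteins. Ackr3 binds the same ligand without activating G proteins, recruits arrestins and carries Cxcl12 into the cell, which lowers and shapes the ligand available to Cxcr4. In the embryonic forebrain this group is known for guiding migrating interneurons and Cajal-Retzius cells, with the meninges and progenitor zones as sources of the ligand.

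The genes lie apart in the genome and have unlike promoters. On GRCm38, Cxcl12 (ENSMUSG00000061353) occupies chr6:117168535-117181367 on the plus strand, Cxcr4 (ENSMUSG00000045382) chr1:128588199-128592293 on the minus strand and Ackr3 (ENSMUSG00000044337) chr1:90203980-90216751 on the plus strand. None overlaps another annotated gene, and 0 of their transcript windows of 75 bases, the read length, occur in transcripts of another gene. Of each, the 250 bases before the RefSeq start on GRCm38.p6 are shown, since they hold the sequence next to the start of the genes whose levels are compared. They run 5′ to 3′ along the gene, at chr6:117168285-117168534 (plus), chr1:128592300-128592549 (minus) and chr1:90203730-90203979 (plus). Capitals mark matches, on either strand, to the TATA box letters TATAAA, the GC box letters GGGCGG or the EBF core letters CCCNNGGG.
Cxcl12: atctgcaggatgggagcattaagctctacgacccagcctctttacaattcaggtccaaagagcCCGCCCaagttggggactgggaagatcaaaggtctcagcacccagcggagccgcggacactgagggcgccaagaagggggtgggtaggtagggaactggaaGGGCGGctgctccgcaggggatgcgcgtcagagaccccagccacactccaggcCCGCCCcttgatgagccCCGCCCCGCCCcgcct
Cxcr4: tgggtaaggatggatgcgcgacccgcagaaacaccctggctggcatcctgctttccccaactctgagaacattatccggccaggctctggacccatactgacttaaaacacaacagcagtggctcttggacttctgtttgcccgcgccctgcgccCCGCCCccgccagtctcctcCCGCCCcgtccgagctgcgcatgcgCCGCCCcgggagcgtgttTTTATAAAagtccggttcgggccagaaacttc
Ackr3: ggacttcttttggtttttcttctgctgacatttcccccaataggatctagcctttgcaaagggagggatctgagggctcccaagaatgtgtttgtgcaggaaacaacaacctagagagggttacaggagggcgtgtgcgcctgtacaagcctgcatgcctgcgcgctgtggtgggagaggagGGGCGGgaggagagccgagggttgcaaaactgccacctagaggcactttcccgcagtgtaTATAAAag
The Cxcl12 window was the richest in G and C, at 64.4%, and held 5 GC box matches, the last 2 of which share a base, and no TATAAA. The Cxcr4 window, at 61.2%, held 3 GC box matches and 2 TATAAA matches that overlap on opposite strands. The Ackr3 window, at 54%, held 1 GC box match and 1 TATAAA match whose first base is at -8 from the start. The EBF letters occurred in none of the 3 windows. Among 32851 promoter windows of the same length, 12.4% held TATAAA, 32.7% GGGCGG and 11.8% CCCNNGGG. A match is a description of letters and not of a bound site.

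The libraries held 16.5 to 41.5 M counts each, the lowest in Islet1Cre;Ebf1fl/- embryo 3. Ebf1 itself was not lower in the mutants, at 264, 470 and 322 CPM (counts per 1 M after TMM scaling) in controls, 507, 459 and 439 in labelled Islet1Cre;Ebf1fl/- embryos, and 392, 434 and 506 in labelled Dlx5/6::Cre;Ebf1fl/- embryos (adjusted p = 0.599 and 0.399 by edgeR), so the Ebf1 counts do not check the labels, and each direction given follows them. Control embryo 3 and Islet1Cre;Ebf1fl/- embryo 3 stood apart in holding both Xist (400 and 242 CPM) and reads of 4 Y-linked genes (9.79 and 81.5 CPM in sum). Whether each of these libraries holds tissue of a single embryo was not tested. Control embryo 2 alone had Y-linked reads, 126 CPM in sum, with little Xist. The code of an embryo begins with IE or D and followed genotype in part, as every Islet1Cre;Ebf1fl/- embryo has the first, every Dlx5/6::Cre;Ebf1fl/- embryo the second, and the controls have both. The labelled tissue was borne out by its markers, with all 13 SPN markers tested and together at 3470 to 4260 CPM per library. Single SPN markers ran from -0.53 to 0.67 in log2 fold change in Islet1Cre;Ebf1fl/- and from -1.12 to 0.53 in Dlx5/6::Cre;Ebf1fl/-. By edgeR 0 and 1 passed, and 5 of the 13 in each mutant had an unadjusted p below 0.05, beside 7.93% and 15.5% of all genes. By DESeq2 1 and 3 passed, beside 2.5% and 5.6% of all genes.

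Levels of different genes were compared per kilobase of exon. In controls, Cxcr4 stood highest with 21.5 ± 4.25 CPM per kb, followed by Ackr3 with 5.28 ± 0.297 and Cxcl12 with 1.34 ± 0.43 (SD, n = 3 each). The 3 genes did not overlap in controls, where 82.9%, 51.8% and 28.7% of the tested genes had lower levels than Cxcr4, Ackr3 and Cxcl12. In labelled Islet1Cre;Ebf1fl/- embryos, Cxcr4 had 7.27 ± 0.943 and Ackr3 6.85 ± 0.196 CPM per kb, and in labelled Dlx5/6::Cre;Ebf1fl/- embryos 7.19 ± 2.29 and 8.04 ± 1.17. With all exons as the length, the receptors thus overlapped in both mutant groups and no longer had an order beyond their spread. For the mutants no other length was used, so this overlap holds for that length only. Cxcl12 stayed below both receptors in each library, with 1.22 ± 0.238 and 1.76 ± 0.31 CPM per kb in the respective mutants. These levels use all annotated exons. With the longest coding transcript of each gene the control levels were 21.6 for Cxcr4, 5.77 for Ackr3 and 1.95 for Cxcl12, in the same order. With the shortest coding transcript they were 43.1 for Cxcr4, 43.8 for Ackr3 and 5.84 for Cxcl12. The order of the receptors in controls thus depends on the transcript lengths used.

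Cxcr4 was lower in both mutants, to about the same level. It had 47.8, 34.7 and 34.3 CPM in controls 1 to 3, 14.7, 11.3 and 13.4 in labelled Islet1Cre;Ebf1fl/- embryos, and 17.7, 11.3 and 10 in labelled Dlx5/6::Cre;Ebf1fl/- embryos. Every mutant embryo lay below every control, with control 1 the highest of its group. The means were 38.9 ± 7.68, 13.1 ± 1.7 and 13 ± 4.15 CPM (SD, n = 3 each), from 1074 to 1588 reads per control and 225 to 494 per mutant. By edgeR's quasi-likelihood test over all genes, the log2 fold change of Cxcr4 was -1.57 in labelled Islet1Cre;Ebf1fl/- embryos (standard error 0.22, 95% interval -2.05 to -1.09, adjusted p = 0.0112), a 2.97-fold decrease. In labelled Dlx5/6::Cre;Ebf1fl/- embryos it was -1.59 (standard error 0.22, 95% interval -2.06 to -1.11, adjusted p = 0.00447), a 3.00-fold decrease. Since whole tissue was sequenced, fewer cells that express a gene and less RNA per cell cannot be told apart.

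**Figure D1:**
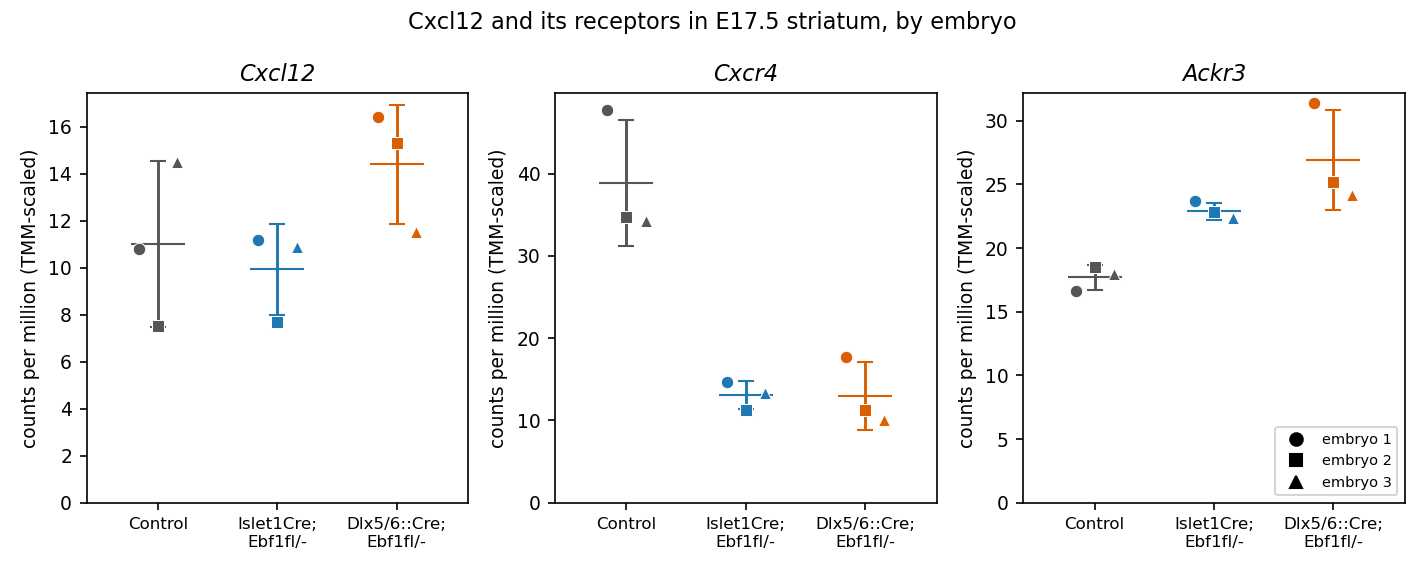
CPM (TMM-scaled, linear axis from 0) of Cxcl12, Cxcr4 and Ackr3 in each of the 9 embryos, by genotype; symbols give the embryo number, wide bars the mean and error bars the SD over 3 embryos. The mutants lie at 10 to 17.7 for Cxcr4, below the controls at 34.3 to 47.8, and at 22.4 to 31.4 for Ackr3, above the controls at 16.6 to 18.5, whereas Cxcl12 overlaps.

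Among the 3 genes, Cxcr4 was the 1 that passed the threshold, an adjusted p below 0.05, in the Islet1Cre;Ebf1fl/- comparison, where 0.971% of all tested genes passed in either direction, 0.501% as lower and 0.47% as higher. In the Dlx5/6::Cre;Ebf1fl/- comparison it was 1 of 2, Cxcr4 lower and Ackr3 higher, where 2.39% of all tested genes passed, 1.34% as lower and 1.05% as higher. Groups without overlap were more common among all genes, with 7.45% lower and 7.77% higher in the first comparison and 11.2% and 9.71% in the second. The mutants did not differ from each other in Cxcr4 by the test (log2 fold change of Dlx5/6::Cre;Ebf1fl/- over Islet1Cre;Ebf1fl/- -0.02, 95% interval -0.50 to 0.46, adjusted p = 0.994 by edgeR), an interval that runs from 0.71-fold to 1.38-fold. Averaged over both mutants, Cxcr4 had a log2 fold change of -1.58 (95% interval -1.97 to -1.19, adjusted p = 0.00137), in a comparison where 2.76% of all genes passed, 1.56% as lower and 1.2% as higher, and where 4.1% and 3.68% had all mutants below or above all controls. The mutants share the same 3 controls.

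The Cxcr4 decrease in labelled Islet1Cre;Ebf1fl/- embryos kept its direction but lost its call without control 1 (-1.40, adjusted p = 0.0565 by edgeR), without Islet1Cre;Ebf1fl/- embryo 1 (-1.66, adjusted p = 0.058) or embryo 2 (-1.47, adjusted p = 0.0842), and without the libraries with both Xist and Y-linked reads (-1.66, adjusted p = 0.0721). The decrease in labelled Dlx5/6::Cre;Ebf1fl/- embryos passed whichever embryo was left out, with log2 fold changes from -1.87 to -1.41, and also without those libraries (-1.67, adjusted p = 0.0224). Within embryos of the same code prefix the Cxcr4 change was -1.65 for Islet1Cre;Ebf1fl/- against 2 controls (adjusted p = 0.0361) and -1.40 for Dlx5/6::Cre;Ebf1fl/- against the 1 control with that prefix (adjusted p = 0.112), which has no replicate.

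Ackr3 was higher in labelled Dlx5/6::Cre;Ebf1fl/- embryos, by less than Cxcr4 was lower. It had 16.6, 18.5 and 18.0 CPM in controls 1 to 3, 23.7, 22.8 and 22.4 in labelled Islet1Cre;Ebf1fl/- embryos, and 31.4, 25.2 and 24.2 in labelled Dlx5/6::Cre;Ebf1fl/- embryos. All 3 groups were apart, with the controls lowest, Islet1Cre;Ebf1fl/- between and Dlx5/6::Cre;Ebf1fl/- highest. The means were 17.7 ± 0.994, 22.9 ± 0.656 and 26.9 ± 3.92 CPM (SD, n = 3 each), on 376 to 970 reads per library. The log2 fold change of Ackr3 was 0.60 in labelled Dlx5/6::Cre;Ebf1fl/- embryos (standard error 0.11, 95% interval 0.35 to 0.86, adjusted p = 0.023 by edgeR), a 1.52-fold increase. In labelled Islet1Cre;Ebf1fl/- embryos it was 0.37 (standard error 0.11, 95% interval 0.12 to 0.63) and did not pass (adjusted p = 0.257, unadjusted p = 0.00777 by edgeR), where 7.93% of all genes had an unadjusted p below 0.05. This does not show that the mutants differ, since the test between them gave 0.23 (95% interval -0.02 to 0.48, adjusted p = 0.868). In that comparison 0% of the genes passed by edgeR, with 844 genes, or 5.16%, at an unadjusted p below 0.05 and 18 by DESeq2, and 5.14% of all genes were without overlap and higher in Dlx5/6::Cre;Ebf1fl/-. For the mean of both mutants Ackr3 had 0.49 on this scale (95% interval 0.27 to 0.71, adjusted p = 0.0293).

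**Figure D2:**
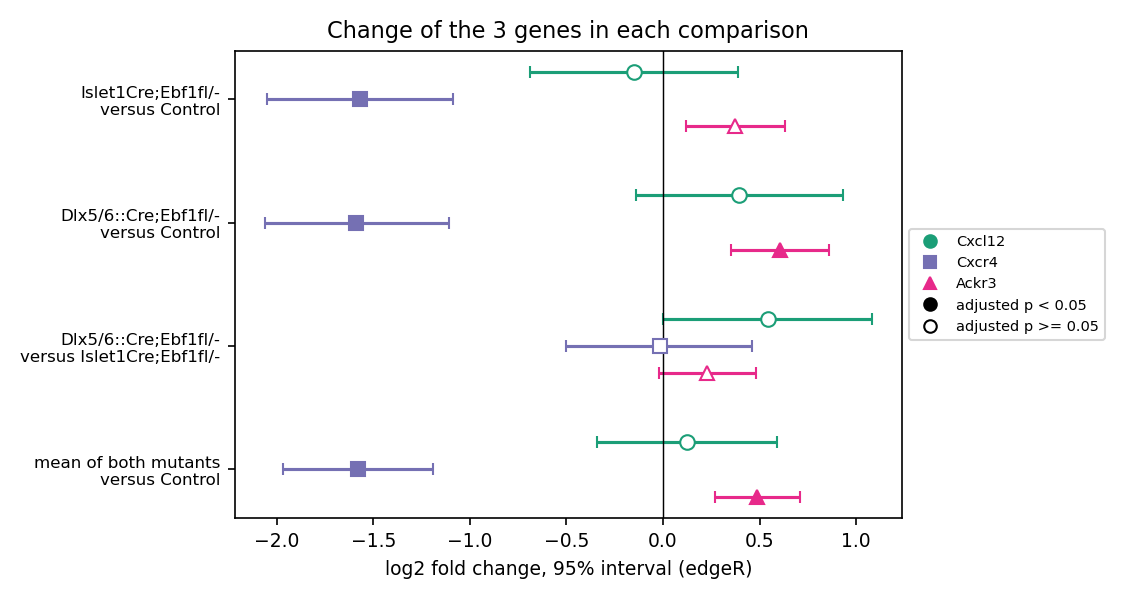
Log2 fold change with its 95% interval (edgeR, all 9 libraries) of Cxcl12, Cxcr4 and Ackr3 in 4 comparisons; filled symbols have an adjusted p below 0.05. Cxcr4 lies near -1.57 and -1.59 in the mutants, Ackr3 at 0.37 and 0.60, and the Cxcl12 intervals against Control include 0.

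The Ackr3 call in labelled Dlx5/6::Cre;Ebf1fl/- embryos was lost without any 1 of the controls (adjusted p = 0.0989, 0.0576 and 0.0711 by edgeR without controls 1, 2 and 3), with log2 fold changes of 0.56, 0.64 and 0.61. It was also lost without the libraries with both Xist and Y-linked reads (0.61, adjusted p = 0.135), with only the 6 libraries compared (0.60, adjusted p = 0.0762) and within the code prefix (0.58, adjusted p = 0.358). Without Dlx5/6::Cre;Ebf1fl/- embryo 1 the value was 0.48 (adjusted p = 0.0158), and the value in labelled Islet1Cre;Ebf1fl/- embryos then passed as well (0.37, adjusted p = 0.0415). For the mean of both mutants the call was lost in 6 of 9 such fits, on leaving out any control (0.44 to 0.52) or any Islet1Cre;Ebf1fl/- embryo (0.48 to 0.50), with adjusted p values from 0.0569 to 0.157.

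Dlx5/6::Cre;Ebf1fl/- embryo 1 had the highest Cxcr4, Ackr3 and Cxcl12 of its group, and it also stood apart in markers of other cells. The 6 dividing cell markers, among them Top2a and Mki67, summed to 415 CPM there against 84.0 and 82.5 in the other embryos of the group, 70.7 to 94.1 in controls and 95.7 to 119 in labelled Islet1Cre;Ebf1fl/- embryos. The 10 markers of cortical excitatory neurons and their progenitors, with Tbr1 the highest in CPM, summed to 245 CPM there against 94.7 and 108 in the rest of its group, and to 39.6 to 98.1 in controls. The part of these cells in the receptor values was not tested. The change of Cxcr4 was larger without this library (-1.87), and that of Ackr3 smaller (0.48).

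Cxcl12, the ligand, was not found to differ. It had 10.8, 7.52 and 14.5 CPM in controls 1 to 3, 11.2, 7.70 and 10.9 in labelled Islet1Cre;Ebf1fl/- embryos, and 16.4, 15.3 and 11.5 in labelled Dlx5/6::Cre;Ebf1fl/- embryos. The Islet1Cre;Ebf1fl/- embryos lay within the range of the controls, which alone spanned 1.94-fold, and Dlx5/6::Cre;Ebf1fl/- embryos 1 and 2 above it. The means were 11 ± 3.52, 9.94 ± 1.94 and 14.4 ± 2.54 CPM (SD, n = 3 each), on 183 to 506 reads. The log2 fold change of Cxcl12 was -0.15 in labelled Islet1Cre;Ebf1fl/- embryos (95% interval -0.69 to 0.39, adjusted p = 0.999 by edgeR) and 0.39 in labelled Dlx5/6::Cre;Ebf1fl/- embryos (95% interval -0.14 to 0.93, adjusted p = 0.464). The intervals thus ran from 0.62-fold to 1.31-fold in Islet1Cre;Ebf1fl/- and from 0.908-fold to 1.90-fold in Dlx5/6::Cre;Ebf1fl/-. Between the mutants, every Dlx5/6::Cre;Ebf1fl/- embryo lay above every Islet1Cre;Ebf1fl/- embryo, by the narrow gap from 11.2 to 11.5, and the log2 difference came to 0.54 (95% interval 0.00 to 1.08, adjusted p = 0.868, unadjusted p = 0.0493). With the code prefix as covariate, Cxcl12 turned its direction against Control, to 0.11 in Islet1Cre;Ebf1fl/- and to -0.02 in Dlx5/6::Cre;Ebf1fl/-, the latter against control 3 alone. The mutants share no prefix, and the difference of these changes, which rests on control 3 too, was -0.12.

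The balance of the genes within a library does not depend on scaling between libraries. The log2 ratio of Cxcr4 to Ackr3 reads was 1.53, 0.91 and 0.93 in controls, -0.68, -1.01 and -0.74 in labelled Islet1Cre;Ebf1fl/- embryos, and -0.82, -1.16 and -1.27 in labelled Dlx5/6::Cre;Ebf1fl/- embryos. Controls thus had more Cxcr4 than Ackr3 reads, and each mutant embryo had fewer. Over the 6 mutant embryos the mean was -0.95 ± 0.24 against 1.12 ± 0.35 over the 3 controls, a 4.20-fold lower ratio (exact two-sided permutation test, p = 0.0238, the smallest that 6 against 3 embryos can give). The log2 ratio of Cxcr4 to Cxcl12 reads was 2.14, 2.21 and 1.24 in controls, 0.39, 0.56 and 0.30 in labelled Islet1Cre;Ebf1fl/- embryos and 0.12, -0.44 and -0.21 in labelled Dlx5/6::Cre;Ebf1fl/- embryos. Its difference between mutants and controls was -1.74, a 3.34-fold lower ratio (exact permutation p = 0.0238). These 2 tests have Cxcr4 in common, and adjusted over both each p stays at 0.0238. Every mutant lay below every control in Cxcr4 and above every control in Ackr3, which already fixed the separation of the first ratio. All mutants lay below all controls in 4.1% of all tested genes and above them in 3.68%. The ratios thus add no support that is independent of the levels of the single genes. With 3 against 3 embryos the exact test cannot go below 0.1, and each mutant alone against the controls gave that value for both ratios.

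**Figure D3:**
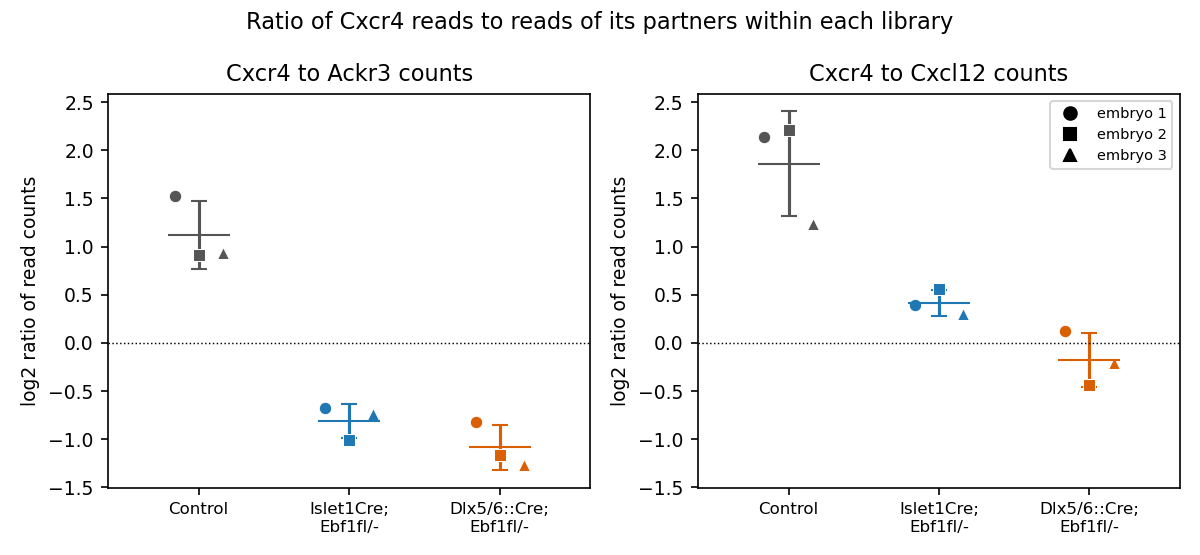
Log2 ratio of Cxcr4 reads to Ackr3 reads (left) and to Cxcl12 reads (right) in each embryo, by genotype, with the mean and SD over 3 embryos; 0 means equal reads. All controls lie above 0.9 on the left, and all mutants at -0.68 or lower.

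Of the other chemokine genes, few were expressed at more than a trace. Of 60 chemokine ligand and receptor genes with a row, 17 were tested and 15 were at 0 in every library, which allows up to 3 counts, or 0.0723 to 0.181 CPM, per library. Against Control, 1 of the 17 passed in labelled Islet1Cre;Ebf1fl/- embryos, which was Cxcr4, or 5.88% beside 0.971% of all genes. In labelled Dlx5/6::Cre;Ebf1fl/- embryos 3 passed, or 17.6% beside 2.39%, of which Cxcr4 was lower and Ackr3 and the ligand Ccl6 higher. The 17 include Cxcl12, Cxcr4 and Ackr3, which were chosen with earlier results known, so these shares rest mostly on the members. Apart from the members, no chemokine gene passed in Islet1Cre;Ebf1fl/- and only Ccl6 in Dlx5/6::Cre;Ebf1fl/-. The median log2 fold change over the 17 was -0.09 and 0.03 in the respective mutants, beside -0.002 and 0.011 over all tested genes. Ccl6, a chemokine of myeloid cells, is scarce here, with 5, 8 and 3 reads in controls, 12, 12 and 10 in labelled Islet1Cre;Ebf1fl/- embryos and 24, 39 and 31 in labelled Dlx5/6::Cre;Ebf1fl/- embryos. Its log2 fold change was 2.59 in the last group (standard error 0.43, adjusted p = 0.0118 by edgeR). The Ccl6 call was lost without control 1 or control 3 (adjusted p at most 0.0626) and within the code prefix (3.27, adjusted p = 0.15).

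Cxcl14, a chemokine with roles in the developing brain, had the most reads of the ligands over all libraries, at 101 ± 14.9, 168 ± 37.1 and 123 ± 14.9 CPM in controls, Islet1Cre;Ebf1fl/- and Dlx5/6::Cre;Ebf1fl/- (SD, n = 3 each), with log2 fold changes of 0.73 and 0.29, neither called (adjusted p = 0.0822 and 0.421, edgeR). Cx3cl1, a membrane-bound chemokine of neurons, had 42.5 ± 8.66, 54.8 ± 6.55 and 59.9 ± 18.7 CPM, and its receptor Cx3cr1, of microglia, 52.2 ± 2.84, 49.1 ± 3.19 and 52.3 ± 2.35, with no call. Ackr2, another atypical receptor, had 4.07 ± 1.23, 3.11 ± 0.745 and 2.86 ± 0.498 CPM, also with no call. Ccl27a and the atypical receptor Ackr1, at 102 ± 11.5 and 26.8 ± 4.13 CPM in controls, are uncertain, since 33.3% and 16.9% of their read windows occur in transcripts of other genes.

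**Figure D4:**
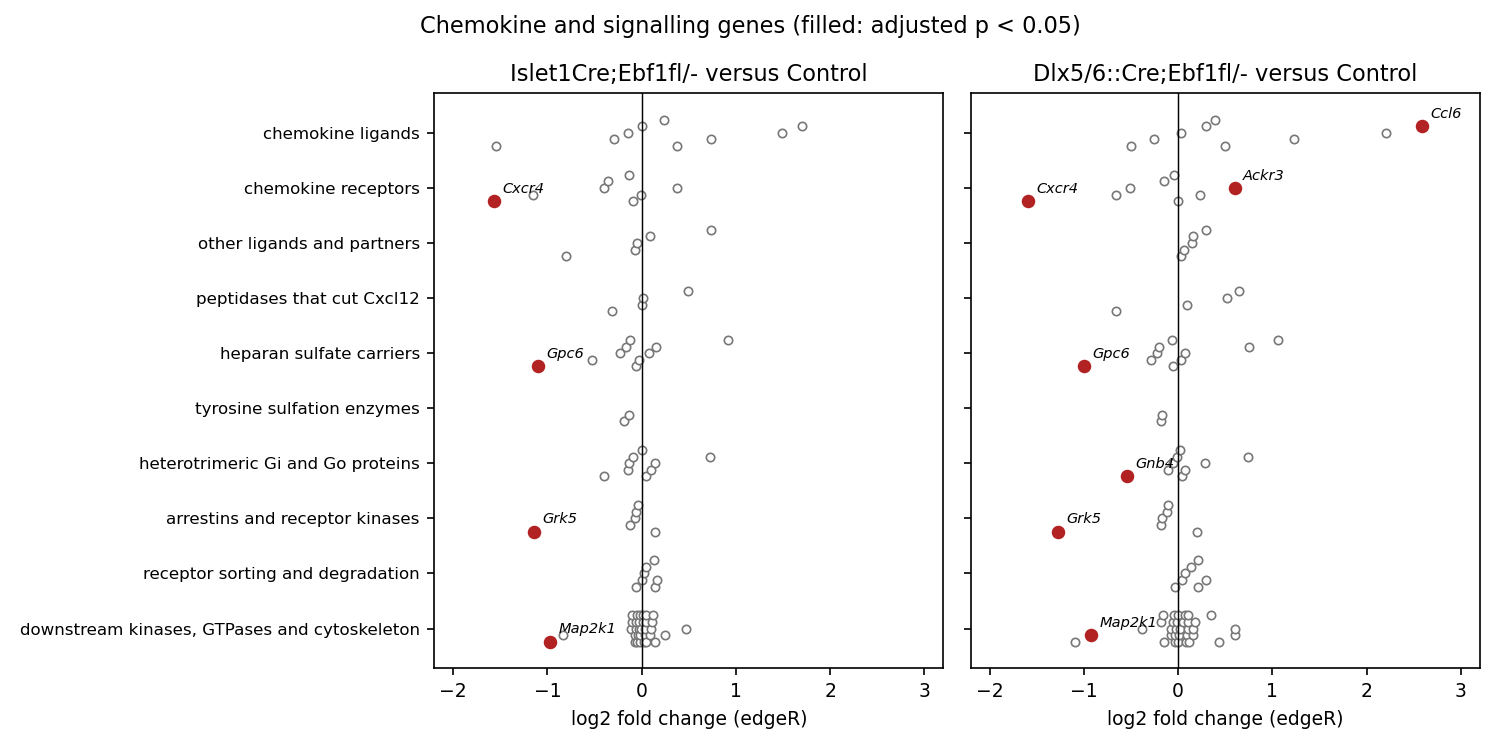
Log2 fold change against Control (edgeR) of every tested gene of the 2 chemokine lists and 8 signalling lists, for labelled Islet1Cre;Ebf1fl/- embryos (left) and Dlx5/6::Cre;Ebf1fl/- (right); filled, named symbols have an adjusted p below 0.05. Cxcr4 at -1.57 and -1.59 is the lowest of the called genes, beside Grk5 at -1.14 and -1.28.

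The genes around the receptors were read in 8 lists, of which 76 genes had a row and all 76 were tested, from other ligands and heparan sulfate carriers to G proteins, arrestins, receptor sorting and downstream kinases. In labelled Islet1Cre;Ebf1fl/- embryos, 3 of the 76 passed, all lower, which is 3.95% of the list genes beside 0.971% of all genes. In labelled Dlx5/6::Cre;Ebf1fl/- embryos 4 passed, all lower, 5.26% beside 2.39%. The medians of the lists, -0.02 and 0.03, were close to those of all genes, and the calls were of single members.

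Grk5, a kinase that phosphorylates activated receptors of the Cxcr4 kind, was the most changed of the signalling genes in both mutants. It had 38.3, 36.7 and 34.2 CPM in controls, 14.3, 15.5 and 19.9 in labelled Islet1Cre;Ebf1fl/- embryos and 11.7, 16.5 and 16.8 in labelled Dlx5/6::Cre;Ebf1fl/- embryos, with no overlap between mutants and controls. Its log2 fold changes were -1.14 and -1.28 (standard error 0.16 each, adjusted p = 0.0116 and 0.00297 by edgeR). The Islet1Cre;Ebf1fl/- call of Grk5 was lost in 3 of 9 fits that left out 1 embryo, those without control 1, Islet1Cre;Ebf1fl/- embryo 1 or embryo 2 (log2 fold changes from -1.29 to -1.05, adjusted p up to 0.0854), and the Dlx5/6::Cre;Ebf1fl/- call in none. The other genes of its list changed little, with the kinases Grk2 at -0.04 and -0.11 and Grk6 at -0.12 and -0.18 and the arrestin gene Arrb1 at -0.07 and -0.12, none of which passed.

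Map2k1, which encodes the kinase MEK1 upstream of ERK, had 91.0, 79.9 and 63.7 CPM in controls, 37.9, 37.0 and 44.9 in labelled Islet1Cre;Ebf1fl/- embryos and 40.8, 44.4 and 39.0 in labelled Dlx5/6::Cre;Ebf1fl/- embryos. Every mutant was below every control, and the log2 fold changes were -0.97 and -0.92 (standard error 0.13 each, adjusted p = 0.0095 and 0.00498 by edgeR). The Islet1Cre;Ebf1fl/- call of Map2k1 was lost without Islet1Cre;Ebf1fl/- embryo 1 or embryo 2 (adjusted p up to 0.0774). The other genes of its list of 33 kinase, GTPase and cytoskeleton genes did not pass by edgeR. Those highest in CPM, the actin severing factor Cfl1, the GTPase Cdc42 and the kinase Akt1, lay between -0.08 and -0.01 in both mutants. The whole list ran from -0.97 to 0.47 in Islet1Cre;Ebf1fl/- and from -1.10 to 0.60 in Dlx5/6::Cre;Ebf1fl/-. Of the 33, 3 and 4 had an unadjusted p below 0.05 by edgeR, beside 7.93% and 15.5% of all genes. By DESeq2 1 and 2 passed, beside 2.5% and 5.6% of all genes.

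Gpc6, a glypican that carries heparan sulfate, had 26.8, 20.4 and 16.8 CPM in controls, 10.2, 8.26 and 11.6 in labelled Islet1Cre;Ebf1fl/- embryos and 13, 9.91 and 9.08 in labelled Dlx5/6::Cre;Ebf1fl/- embryos. The groups were again without overlap, with log2 fold changes of -1.10 and -1.0 (standard error 0.21 with adjusted p = 0.0358, and 0.20 with adjusted p = 0.03, by edgeR). Each Gpc6 call was lost in 5 of 9 fits that left out 1 embryo, without control 1 or 2 and either without any Islet1Cre;Ebf1fl/- embryo, for the first call, or without Dlx5/6::Cre;Ebf1fl/- embryo 2 or 3 or Islet1Cre;Ebf1fl/- embryo 1, for the second (log2 fold changes from -1.24 to -0.90 and from -1.17 to -0.81, adjusted p up to 0.209 and 0.123). Of the heparan sulfate carriers with higher CPM, the syndecan Sdc3 had log2 fold changes of 0.08 and 0.07 and the glypican Gpc1 -0.23 and -0.29, with no call. All 10 carriers ran from -1.10 to 0.92 in Islet1Cre;Ebf1fl/- and from -1.0 to 1.06 in Dlx5/6::Cre;Ebf1fl/-. Of these, 3 and 4 had an unadjusted p below 0.05 by edgeR, beside 7.93% and 15.5% of all genes. Gpc2, at 593 ± 46.0 CPM in controls, is uncertain, as 46.8% of its read windows occur in another gene.

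Among the G protein genes, Gnb4, a beta subunit, had 130.0, 128 and 135 CPM in controls, 93.7, 93.7 and 111 in labelled Islet1Cre;Ebf1fl/- embryos and 76.3, 96.2 and 98.2 in labelled Dlx5/6::Cre;Ebf1fl/- embryos. The mutants lay below the controls, and only the Dlx5/6::Cre;Ebf1fl/- value passed (log2 fold change -0.54, standard error 0.10, adjusted p = 0.0262 by edgeR, against -0.40 and adjusted p = 0.152 in Islet1Cre;Ebf1fl/-). The Gnb4 call was lost without any 1 of the controls (adjusted p up to 0.107) and with only the 6 libraries compared (adjusted p = 0.0616), and the test between the mutants gave -0.14 (adjusted p = 0.868). Gnai1, an inhibitory alpha subunit that was singled out after its values were seen, passed as higher for the mean of both mutants (0.73, adjusted p = 0.0471) and in neither alone (0.72 and 0.74, adjusted p = 0.149 and 0.078). The subunits highest in CPM, Gnb1, Gnb2 and Gnao1, lay between -0.11 and 0.05.

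In the remaining 4 lists, of 18 genes, 0 passed by edgeR in either mutant. Of the 18, 2 and 3 had an unadjusted p below 0.05 by edgeR, beside 7.93% and 15.5% of all genes. By DESeq2 1 passed in each mutant, beside 2.5% and 5.6% of all genes. The 4 lists hold the alternative ligands Mif and Hmgb1 and the opioid precursor gene Penk, whose peptides Ackr3 can bind. The log2 fold changes of these genes ran from -0.07 to 0.16. Mif and Hmgb1 are uncertain because 28.2% and 17.9% of their read windows recur elsewhere. The peptidase genes Mmp14, Mmp9 and Mmp2 lay between 0.00 and 0.65. The sulfation enzyme genes Tpst1 and Tpst2 lay between -0.19 and -0.13, and the sorting genes Nedd4, Vps4a and Hgs between -0.03 and 0.30. The named genes are those highest in CPM, and 2 of the lists ran wider. All 4 peptidase genes ran from -0.32 to 0.49 in Islet1Cre;Ebf1fl/- and from -0.66 to 0.65 in Dlx5/6::Cre;Ebf1fl/-. The 5 tested other ligands and partners ran from -0.80 to 0.73 and from 0.03 to 0.29 in the respective mutants.

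Within the code prefix, Grk5, Map2k1 and Gpc6 kept their calls in labelled Islet1Cre;Ebf1fl/- embryos (adjusted p = 0.0433, 0.00662 and 0.0457 by edgeR, log2 fold changes -1.18, -1.10 and -1.24). In labelled Dlx5/6::Cre;Ebf1fl/- embryos none of the 4 signalling genes kept its call against the 1 control (Grk5 -1.19, Map2k1 -0.62, Gpc6 -0.66 and Gnb4 -0.58, adjusted p = 0.0872, 0.15, 0.586 and 0.246). Without the libraries with both Xist and Y-linked reads, Grk5 and Map2k1 passed in both mutants (adjusted p from 0.00382 to 0.0413), Gpc6 in Dlx5/6::Cre;Ebf1fl/- (-1.15, adjusted p = 0.0447) but not in Islet1Cre;Ebf1fl/- (-1.35, adjusted p = 0.0717), and Gnb4 and Ccl6 did not pass (adjusted p = 0.136 and 0.0888).

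Markers of the cells that could carry these genes were read beside them, in 12 lists of 90 genes, of which 80 were tested. By edgeR, 0 passed in labelled Islet1Cre;Ebf1fl/- embryos, with 9 at an unadjusted p below 0.05, beside 7.93% of all genes. By DESeq2 1 passed there, beside 2.5% of all genes. In labelled Dlx5/6::Cre;Ebf1fl/- embryos 2 passed, 2.5% beside 2.39% of all genes. There 23 of the 80 had an unadjusted p below 0.05, beside 15.5% of all genes, and 11 passed by DESeq2, beside 5.6% of all genes. The 2 that passed by edgeR were Fcrls, a microglial gene, at 1.08 (adjusted p = 0.024), and Foxp1, an SPN transcription factor gene, at -0.53 (adjusted p = 0.0305). The Fcrls call was lost in 4 of 9 fits that left out 1 embryo, those without a control or Dlx5/6::Cre;Ebf1fl/- embryo 2 (adjusted p up to 0.0913), and the Foxp1 call in 7, all but those without Dlx5/6::Cre;Ebf1fl/- embryo 1 or 3 (adjusted p up to 0.134). Both calls were also lost within the code prefix (adjusted p = 0.366 for Fcrls and 0.148 for Foxp1) and without the libraries with both Xist and Y-linked reads (0.134 and 0.229), and that of Foxp1 with only the 6 libraries compared (0.0942).

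Migrating interneurons are a main source of both receptors in the embryonic brain, and their 8 markers, with Sst the highest in CPM, summed to 391 to 441 CPM in controls, 409 to 446 in labelled Islet1Cre;Ebf1fl/- embryos and 282 to 411 in labelled Dlx5/6::Cre;Ebf1fl/- embryos. The lowest sum, 282, was that of Dlx5/6::Cre;Ebf1fl/- embryo 1. All 8 were tested and 0 passed by edgeR. At an unadjusted p below 0.05 by edgeR were 0 and 5 of the 8 in the respective mutants, beside 7.93% and 15.5% of all genes. By DESeq2 0 and 2 of the 8 markers passed, beside 2.5% and 5.6% of all genes. Their median log2 fold change was 0.18 in Islet1Cre;Ebf1fl/-, with single genes from -0.31 to 0.45, and 0.08 in Dlx5/6::Cre;Ebf1fl/-, with single genes from -0.76 to 0.46. The part of these cells in the Cxcr4 values was not tested. Of the 6 Cajal-Retzius cell markers, Calb2 alone was tested. The sum of the 6 was 5.17 to 7.87 CPM in controls, 7.97 to 11.1 and 8.87 to 10.7 in the mutants. Every mutant thus lay above every control in this sum, by the narrow gap from 7.87 to 7.97. Calb2 had log2 fold changes of 0.68 and 0.66, each with an unadjusted p below 0.05 but no call by edgeR. By DESeq2 it passed for the mean of both mutants, where 4.78% of all genes passed, and in neither mutant alone. Meningeal fibroblast markers, 5 of 8 tested and led by Col1a2, summed to 6.22 to 9.99 CPM in controls, 6.66 to 9.38 and 7.28 to 12.8, so meningeal markers were low in each group.

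Vessel markers had sums of 138 to 182, 143 to 156 and 132 to 165 CPM for 8 endothelial genes and 140 to 174, 140 to 147 and 132 to 180 for 7 mural genes, in ranges that overlapped. Of the mural genes, 1 had an unadjusted p below 0.05 by edgeR in each mutant, beside 7.93% and 15.5% of all genes. In Dlx5/6::Cre;Ebf1fl/- 1 mural gene passed by DESeq2, beside 5.6% of all genes. The 9 microglia markers summed to 243 to 331 CPM in controls, 208 to 323 and 288 to 337. Of the 9, 1 and 3 had an unadjusted p below 0.05 by edgeR in the respective mutants. By DESeq2 0 and 3 microglia markers passed, beside 2.5% and 5.6% of all genes. The cortical markers had a median log2 fold change of -0.13 in Islet1Cre;Ebf1fl/- and 1.01 in Dlx5/6::Cre;Ebf1fl/-, and the dividing cell markers 0.33 and 1.09, where 0 genes of either list passed by edgeR, 5 cortical and 3 dividing cell markers had an unadjusted p below 0.05 in Dlx5/6::Cre;Ebf1fl/- (of 10 and 6, beside 15.5% of all genes), and 2 and 0 passed by DESeq2 (beside 5.6% of all genes). Radial glia and astrocyte markers summed to 631 to 714 CPM in controls, 544 to 723 and 623 to 1190, oligodendrocyte lineage markers to 141 to 181, 127 to 155 and 154 to 214, and choroid plexus markers to 5.57 to 6.92, 5.12 to 6.73 and 5.41 to 11.2. The part of these cells in the Ackr3 and Cxcr4 values was not tested.

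The genes whose profile over the 9 libraries came nearest to each of the 3 were found among 11609 protein-coding genes, by the root mean square difference of centred log2 CPM. For Cxcr4 they were Ankrd6 (0.23), Sox8 (0.24), Whrn (0.27), Nefm (0.28) and Gpc6 (0.29), against a spread of 0.79 of Cxcr4 itself. Their log2 fold changes lay between -1.57 and -1.10 in Islet1Cre;Ebf1fl/- and between -1.76 and -1.0 in Dlx5/6::Cre;Ebf1fl/-. Whrn passed in neither mutant (adjusted p = 0.0954 and 0.0688 by edgeR). For Ackr3 they were Pot1a (0.062), Zfp438 (0.066), Pls3 (0.068), Trmt2b (0.069) and Ddah1 (0.074), against a spread of 0.27. Their log2 fold changes lay between 0.29 and 0.49 in Islet1Cre;Ebf1fl/- and between 0.48 and 0.69 in Dlx5/6::Cre;Ebf1fl/-. For Cxcl12 they were Sft2d2 (0.18), P4ha1 (0.19), Leng1 (0.21), Slc2a1 (0.21) and B2m (0.23), against 0.37. The 3 genes were not near each other, as Ackr3 ranked 1654 and Cxcr4 11554 by distance from Cxcl12. The 3 control libraries enter each of these profiles. Since the genes were chosen by profile over the same libraries, fold changes near those of the member follow from the choice.

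**Figure D5:**
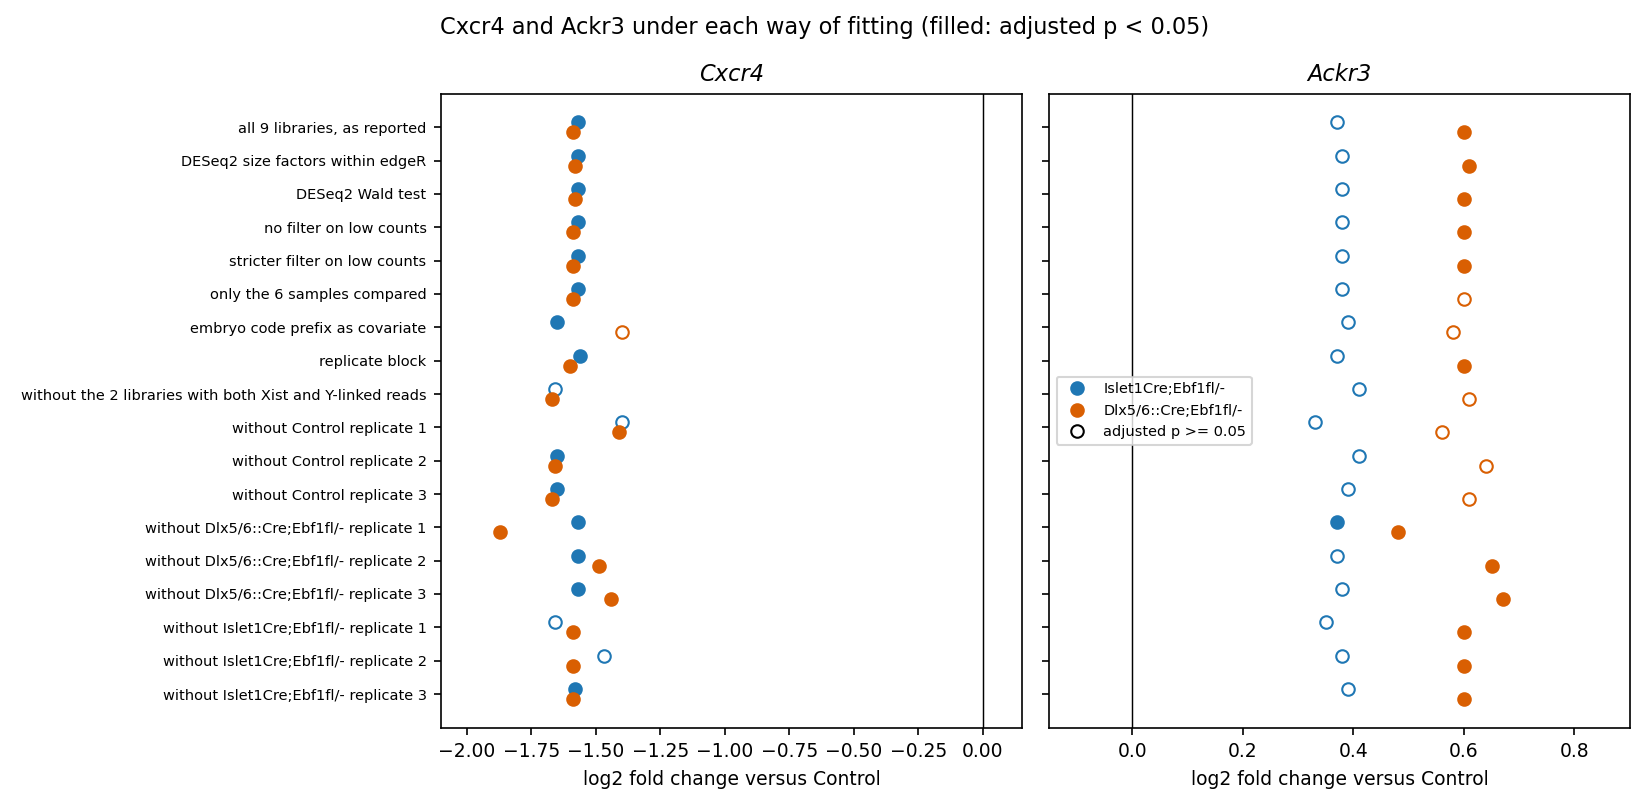
Log2 fold change against Control of Cxcr4 (left) and Ackr3 (right) in both mutants under each way of fitting, with all 9 libraries, other tools, filters and covariates, and with 1 or 2 libraries left out; filled symbols have an adjusted p below 0.05. Cxcr4 stays between -1.87 and -1.40 and Ackr3 between 0.33 and 0.67, while several symbols are open.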

How the data were processed

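RNA of striatal tissue was sequenced from 9 embryos, in libraries of polyadenylated RNA read over 75 bases, and grouped by the sample labels. The authors deposited raw counts per Ensembl gene, made with the Eoulsan pipeline: reads were trimmed and filtered, mapped with STAR 2.4.0k to mm10, stripped of reads with several matches and counted by HTSeq-count 0.5.3. The strand setting of the counting is not given in the sources used here. From these counts, edgeR 4.0.16 in R 4.3.3 was fitted to all 9 libraries with 3 groups (filterByExpr with minimum count 10, TMM, quasi-likelihood test, Benjamini-Hochberg adjustment over 16368 genes, threshold 0.05). A block for the replicate number was an alternative, beside DESeq2 1.42.0, other filters, the embryo code prefix, the 6 libraries compared and each embryo left out. Leaving out the libraries with both Xist and Y-linked reads was added after the data were seen. Symbols and positions come from GENCODE M21, which named 44133 of 44886 identifiers, and promoters from RefSeq, with all 3 genes matched.

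The members and lists were chosen with earlier results of these data known. Named genes were the 3 members, Ebf1, each chemokine or signalling list gene that passed in either mutant with up to 3 further genes of highest mean CPM, each marker that passed with the most abundant marker of its list, and the 5 nearest profiles (mean normalized count of at least 100, pseudocount 0.1). With 3 embryos per group p-values measure the spread between these embryos, whose litters are not given. On simulated data for 16368 genes with 200 changed, 70% were recovered in each mutant against Control (44% and 52% at 1.5-fold, 72% and 76% at 3-fold), with 7.28% of calls false. No 2 libraries of a group agreed within sampling noise (chi-square per degree of freedom at least 10.8). The authors' own comparison tables were not used. Protein sequences were not used here.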

Additional observations from a re-analysis of the deposited data

How the results depend on the processing

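The directions of Cxcr4 and Ackr3 against Control held under all alternatives run, whereas calls depended on single libraries. With a single embryo left out, the log2 fold change of Cxcr4 ranged from -1.66 to -1.40 in Islet1Cre;Ebf1fl/-, from -1.87 to -1.41 in Dlx5/6::Cre;Ebf1fl/-, from -1.72 to -1.40 for their mean and from -0.30 to 0.13 between the mutants. That of Ackr3 ranged from 0.33 to 0.41, 0.48 to 0.67, 0.43 to 0.52 and 0.11 to 0.29, and that of Cxcl12 from -0.36 to 0.11, 0.18 to 0.65, -0.09 to 0.38 and 0.38 to 0.67. The number of changed genes then ranged from 15 to 397, 143 to 613, 178 to 775 and 0 to 4. The difference in the log2 ratio ranged from -2.18 to -1.87 for Cxcr4 to Ackr3 and from -2.05 to -1.57 for Cxcr4 to Cxcl12 (exact permutation p from 0.0357 to 0.0714, as fewer embryos raise the smallest p).

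With the embryo code prefix as covariate, Cxcr4 was -1.40 in Dlx5/6::Cre;Ebf1fl/- (adjusted p = 0.112 by edgeR) and 0.25 between the mutants, Ackr3 was 0.58 in Dlx5/6::Cre;Ebf1fl/- and 0.48 for the mean (adjusted p = 0.0733), and Cxcl12 was 0.11, -0.02 and -0.12 in Islet1Cre;Ebf1fl/-, in Dlx5/6::Cre;Ebf1fl/- and between them, where the mutants share no prefix and the D contrast has 1 control. Among embryos of prefix IE the ratio differences were -2.03 and -1.76, where 3 against 2 embryos cannot reach the threshold (exact permutation p = 0.2). Without the libraries with both Xist and Y-linked reads, Cxcr4 was -1.66 in Islet1Cre;Ebf1fl/- (adjusted p = 0.0721), Ackr3 0.61 in Dlx5/6::Cre;Ebf1fl/- and 0.51 for the mean (adjusted p = 0.135 and 0.179), Cxcl12 0.04 in Islet1Cre;Ebf1fl/-, and the ratio differences -2.21 and -2.09 (exact permutation p = 0.0952). With only the 6 libraries compared, Ackr3 was 0.60 in Dlx5/6::Cre;Ebf1fl/- (adjusted p = 0.0762). The cause of these changes was not tested.

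Embryos with the same number did not deviate together over all 3 groups (correlation of deviations from -0.27 to 0.32, over 0.1 in 3 of 9 pairs). The 3 pairs over 0.1 were those of Control and Dlx5/6::Cre;Ebf1fl/- (0.316, 0.122 and 0.267). Between these 2 groups, embryos with unlike numbers ran from -0.332 to 0.166. The numbers thus do not pair the embryos over all groups, and a link between these 2 groups was not tested. With the replicate block, Cxcr4 was -1.56 and -1.60 (adjusted p = 0.004 and 0.0016), Ackr3 0.60 in Dlx5/6::Cre;Ebf1fl/- (adjusted p = 0.0434) and 0.48 for the mean (adjusted p = 0.0568), and the ratio differences -2.07 and -1.74, where the block allows no p below 0.25.

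Changed genes numbered 159 in Islet1Cre;Ebf1fl/-, 392 in Dlx5/6::Cre;Ebf1fl/-, 0 between them and 452 for the mean. They were 401, 862, 18 and 781 with DESeq2, 311, 708 and 13 with no filter for the first 3 comparisons, 259, 181 and 2 with only the 6 libraries compared, 61, 32, 1 and 278 with the code prefix, and 52, 138, 3 and 170 without the libraries with both Xist and Y-linked reads. Of the values of single list genes and lists under the alternatives, 1062 kept their side of the threshold or their count, 46 lost a call and 161 counts moved. Ccl6 had only 3 to 39 reads per library.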
